A study of Mus musculus with 19 samples.

Results

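The hotspots described here are the autosomal sites of DMC1 binding in B6/SPRT testis to which no Prdm9 allele was assigned. B6/SPRT is the sterile male F1 hybrid of a C57BL/6J (B6) mother and a Mus spretus (SPRET/EiJ, hereafter SPRT) father, with a B6 and a SPRT Prdm9 allele and an X chromosome from B6. Members were chosen as the hotspots on chromosomes 1 to 19 whose allele is entered as unknown, with no value of signal used directly. The authors assigned alleles by comparing mice, so signal may have entered the choice indirectly. Whether weak sites were assigned less often for that reason was not tested. This gave 5103 of the 18522 autosomal hotspots of B6/SPRT, or 27.6% (95% Wilson interval 26.9 to 28.2%), among 74327 hotspots over all 5 genotypes. Of the other autosomal hotspots of B6/SPRT, 4122 were attributed to the B6 allele, 9247 to the SPRT allele and 50 carried the mark KO. All intervals given for shares and medians cover counting error over hotspots of 1 library, since DMC1 was sequenced once per genotype.

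The other 4 genotypes serve as places to look for the same positions. Hum/SPRT and CAST/SPRT are F1 hybrids of the same 2 genomes, in which the B6 Prdm9 allele is replaced by one with the human or the Mus musculus castaneus DNA-binding array. STUS/B6 and STUS/Hum are hybrids of B6 with STUS, a Mus musculus musculus strain, carrying the STUS allele beside the B6 or the humanized allele. Every genotype was sampled as whole testis of adult males, so that fewer cells at a stage and less signal per cell cannot be told apart. Of the 5 genotypes, B6/SPRT was the only one in which B6 PRDM9 and the SPRT chromosomes occurred together.

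PRDM9 is a zinc finger protein of meiotic cells that binds DNA by its own sequence motif and trimethylates lysine 4 of histone H3 (H3K4me3) on the nucleosomes around. Double-strand breaks are then made at a subset of the bound sites, and the recombinase DMC1 loads onto the resected single strands, which are pulled down and sequenced as a map of breaks. Active gene promoters carry H3K4me3 of their own, laid down by other methyltransferases. In a hybrid, sequence differences between the homologs show on which chromosome a site was bound or cut, because DMC1 covers the chromosome that was broken.

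3 promoters are shown because the members with the highest H3K4me3 lay beside them, at the starts of Tmem42, a transmembrane protein gene, Dnajc1, which encodes an endoplasmic reticulum co-chaperone, and Mrps30, which encodes a mitochondrial ribosomal protein. The 250 bases before each gene start are given 5′ to 3′ on the strand of the gene, from RefSeq for GRCm38.p6 (mm10), with CG dinucleotides in capitals.
Tmem42 (chr9:123021076-123021325, plus strand): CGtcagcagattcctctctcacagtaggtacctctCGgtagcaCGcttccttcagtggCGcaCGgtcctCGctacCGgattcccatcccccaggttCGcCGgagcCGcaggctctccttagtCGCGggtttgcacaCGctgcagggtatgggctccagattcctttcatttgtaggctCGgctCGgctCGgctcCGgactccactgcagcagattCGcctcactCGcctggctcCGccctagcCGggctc
Dnajc1 (chr2:18392831-18393080, minus strand): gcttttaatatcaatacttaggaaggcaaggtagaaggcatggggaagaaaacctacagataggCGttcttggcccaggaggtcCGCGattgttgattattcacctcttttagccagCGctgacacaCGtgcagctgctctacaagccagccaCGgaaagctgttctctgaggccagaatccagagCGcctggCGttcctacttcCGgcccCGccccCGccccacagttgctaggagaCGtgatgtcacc
Mrps30 (chr13:118387253-118387502, minus strand): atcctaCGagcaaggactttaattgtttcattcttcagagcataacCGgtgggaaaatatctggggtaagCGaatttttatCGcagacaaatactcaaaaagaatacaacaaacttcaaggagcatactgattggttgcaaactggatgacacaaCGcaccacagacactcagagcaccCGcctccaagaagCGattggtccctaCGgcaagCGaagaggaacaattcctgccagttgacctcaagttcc
The Tmem42 stretch held 21 CG dinucleotides, the Dnajc1 stretch 12 and the Mrps30 stretch 9, against a median of 6 over 32851 promoter stretches of the same length. Of all those stretches, 92.1% held at least 1 CG. Over the 73 promoters whose gene start lay within 1 kb of a member the median was 8, and over 20085 protein-coding promoters of autosomes it was 10.

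Hotspots without an allele were weak. Their median DMC1 signal, the value the authors' hotspot caller gave each site and whose scaling to depth is not stated, was 19.6 (95% interval 19.3 to 20.02). Members ran from 7.51 to 675, and the middle part of them, from the 25th to the 75th percentile, from 13.8 to 30.1. B6-allele hotspots had a median of 43.4 and SPRT-allele hotspots one of 104, and the member median was below both on 19 of 19 autosomes. Only 333 members (6.53%) had a signal of at least 100, where 33.5% of all autosomal hotspots did. The members thus held 27.6% of the autosomal hotspots and 9.90% of the DMC1 signal. Over single autosomes their share of hotspots ranged from 23.0 to 31.6% and their share of signal from 8.48 to 12.3%.

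Ranked into 10 deciles by DMC1 signal, hotspots without an allele filled most of the lowest ranks. They were 68.3% of the weakest decile and 66.0% of the next, fell to 17.0% in the decile around a signal of 37.8 to 54.5, and were 5.07% of the strongest. The B6 allele changed far less over these ranks, from 27.3% of the weakest decile to 13.2% of the strongest. SPRT-allele hotspots took the opposite course, from 2.64 to 81.7%.

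**Figure D1:**
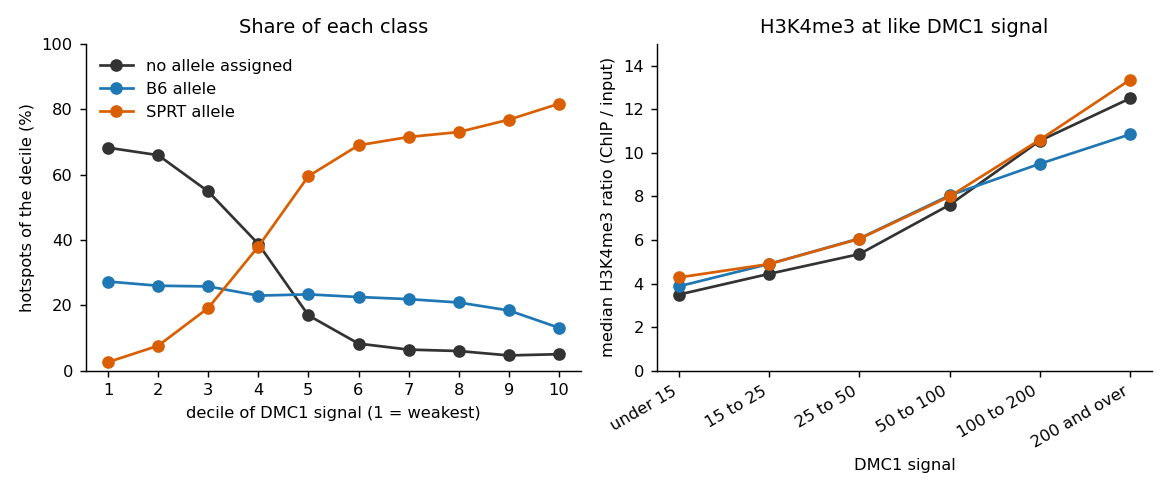
Left, share of hotspots without an allele, of the B6 allele and of the SPRT allele (y, %) in each decile of DMC1 signal (x) of autosomal B6/SPRT hotspots. Right, median H3K4me3 ratio, ChIP over input coverage (y), of the same classes in ranges of DMC1 signal (x). Hotspots without an allele drop from 68.3 to 5.07% of a decile, and their H3K4me3 runs close to that of the assigned classes at like signal.

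H3K4me3 at the members was also low. Its gap to the alleles cannot be sized against that of DMC1, since the scales differ and no H3K4me3 background was subtracted here. The H3K4me3 ratio used here is ChIP coverage over input coverage in a 1 kb window at the hotspot, with the values of 2 ChIP and 2 input samples taken as pooled. Its median was 4.67 at members (interval 4.56 to 4.75), against 6.73 at B6-allele and 9.32 at SPRT-allele hotspots. Members again lay below both alleles on 19 of 19 autosomes. They held 19.5% of the summed ratio, about the share of the B6 allele (20.01%) although there were more of them.

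At like DMC1 signal the gap was smaller, and among strong sites the median over all members reached the level of the alleles. That median joined unlike groups. At a signal of 100 and over it was 8.31 for members found in no other genotype and 14.0 for those found in another. Below a signal of 15 the median ratio was 3.50 at members, 3.88 at B6-allele and 4.29 at SPRT-allele hotspots. From 15 to 25 it was 4.45 at members and 4.90 for either allele, and from 25 to 50 it was 5.36, 6.07 and 6.06. Between 50 and 100 the members stood at 7.62, with 8.05 for the B6 and 8 for the SPRT allele. From 100 to 200 members had a median ratio of 10.6, as did the SPRT allele, with 9.50 for the B6 allele. At 200 and over the member value of 12.5 lay between 10.9 for the B6 and 13.4 for the SPRT allele. Over the 5103 members, signal and ratio rose together with a Spearman correlation of 0.419, lower than the 0.567 of B6-allele and the 0.538 of SPRT-allele hotspots. Members spanned a narrower range of signal, with quartiles of 13.8 and 30.1. The B6 allele had 19.8 and 108, and the SPRT allele 53.7 and 199. The part of this range in the lower correlation was not tested. These correlations run over hotspots of the same libraries, which are not independent replicates.

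Which chromosome was cut is given by the share of DMC1 reads from the B6 homolog, listed for 3722 of the 5103 members (72.9%). The number of reads behind it is unknown, so that the value at a weak site may rest on few reads. Over all members the share covered the whole range, with a median of 60.7% and quartiles of 22.2 and 95.2%. Under 25% B6, which is cutting mostly on the SPRT chromosome, were 993 members or 26.7%, beside 24.5% of all autosomal hotspots. Between 25 and 75%, where both homologs were cut to a like degree (matched below), were 1127 or 30.3% (interval 28.8 to 31.8%), beside 29.0%. Over 75% B6 were 1602 or 43.0%, beside 46.5%. Over all signals together these shares were close to those of all hotspots, but at like signal they differed. From 15 to 25, 43.9% of members with a share were over 75% B6, beside 36.6% of all hotspots. From 100 to 200, 47.8% were under 25% B6, beside 23.1%, and at 200 and over 34.7%, beside 13.3%. B6-allele hotspots fell under 25% in 61.6% of cases and over 75% in 12.9%, and SPRT-allele hotspots in 10.8 and 59.7%. The matched share was 25.5% for the B6 allele and 29.5% for the SPRT allele, the latter within the interval of the members.

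H3K4me3 was spread more evenly over the homologs than cutting. The share of H3K4me3 reads from B6 could be read at 5061 members with at least 20 reads that carry a SNP, with a median of 136 such reads per member. Matched were 3292 members (65.0%, interval 63.7 to 66.3%), beside a background of 56.5%. Under 25% B6 were 487 (9.62%), beside 13.1%, and over 75% were 1282 (25.3%), beside 30.4%. B6-allele hotspots were matched by H3K4me3 in 60.8% and SPRT-allele hotspots in 49.7%. At like DMC1 signal the members' excess over all hotspots was mostly gone. Under 15 the matched share was 71.6% at members and 73.4% at all hotspots. From 15 to 25 it was 67.0 and 69.9%, from 25 to 50 60.7 and 62.5%, and from 100 to 200 43.5 and 45.5%. Members lay above all hotspots between 50 and 100 (59.9 against 54.9%) and at 200 and over (43.2 against 36.7%).

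The 2 readouts seldom named opposite homologs. Of 3715 members with both shares, 990 were under 25% B6 by DMC1. Of those, 340 were also under 25% by H3K4me3, 647 were matched and 3 were over 75%. Of 1600 members over 75% by DMC1, 1146 were over 75% by H3K4me3, 454 were matched and none was under 25%. Among the 1125 matched by DMC1, 1080 (96.0%) were matched by H3K4me3 too. The DMC1 share lay further from an even split than the H3K4me3 share at 84.8% of the members. The shares correlated with a Spearman value of 0.876 over members, beside 0.886 for the B6 and 0.907 for the SPRT allele. Both come from the same hybrid and the same SNPs, and input coverage, H3K4me3 of other origin and background reads were not subtracted from the H3K4me3 share.

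**Figure D2:**
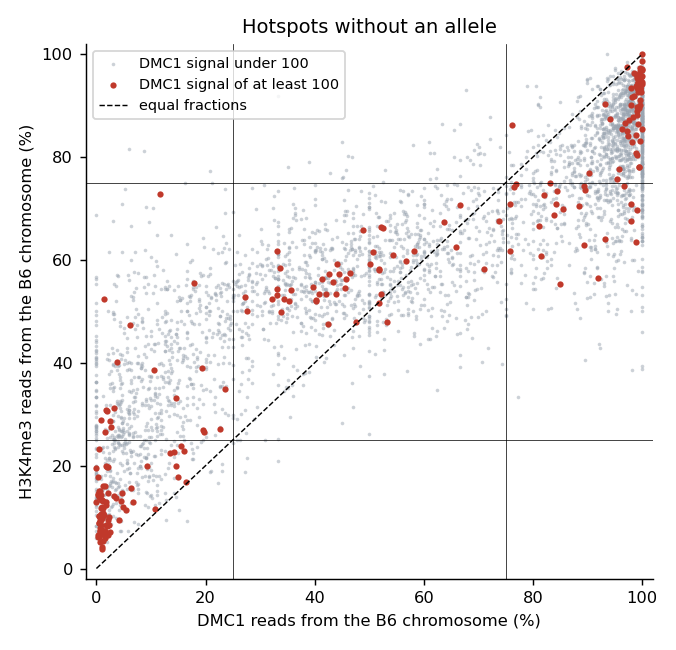
Share of DMC1 reads (x, %) and of H3K4me3 reads (y, %) from the B6 chromosome at 3715 members with both values, each point 1 hotspot, with lines at 25 and 75% and a dashed line of equal shares. Red points are members with a DMC1 signal of at least 100. Most points lie nearer to an even split by H3K4me3 than by DMC1.

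Positions were then looked up in the other genotypes. A member was called recurrent where another genotype had a hotspot center within 500 bp. The authors assigned alleles by comparing mice, so recurrence is bound up with the choice of members and is given as a description. Of the 5103 members, 4604 (90.2%) recurred in none of the other 4 genotypes, 255 in 1 of them, 195 in 2, 48 in 3 and 1 in all 4. Of all autosomal B6/SPRT hotspots, members included, 28.4% recurred in none, and most of these 5267 were the 4604 members. Hum/SPRT held 393 of the members (7.70%), where it held 52.2% of all autosomal B6/SPRT hotspots. CAST/SPRT held 181 (3.55%, all hotspots 29.3%) and STUS/B6 held 162 (3.17%, all hotspots 19.99%). In STUS/Hum, which shares neither the B6 nor the SPRT allele, were 57 members (1.12%), close to the 0.880% of all hotspots. Of the hotspots with an allele, 99.6% of SPRT-allele ones recurred in Hum/SPRT and 83.8% of B6-allele ones in STUS/B6. Their names rest on the same comparison of mice, so this is no separate contrast to the members.

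In Hum/SPRT and STUS/B6 most recurrent members had no allele there either, while in STUS/Hum most had one. In Hum/SPRT 294 were again unknown and 99 were assigned to SPRT. Of the 181 found in CAST/SPRT, 93 were unknown and 88 assigned to SPRT. STUS/B6 listed 120 as unknown and 42 as B6. STUS/Hum gave 22 as unknown, 19 as humanized and 16 as STUS. Members whose position was assigned to SPRT elsewhere were strong, with a median DMC1 signal in B6/SPRT of 202 for the 99 in Hum/SPRT, against 60.3 for the 294 unknown there. The 42 that were B6 in STUS/B6 had a median of 194, and the 120 unknown there one of 38.5. Where both hybrids gave a B6 share, it differed by at most 10 percentage points at 217 of 288 members (75.3%) in Hum/SPRT and at 109 of 136 (80.1%) in CAST/SPRT. In STUS/B6, whose second homolog is STUS and not SPRT, it did so at 31 of 90 (34.4%). This comparison of shares was made for members only, so it does not show whether assigned hotspots differ.

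28 members carried the B6 name in STUS/B6 and the SPRT name in both Hum/SPRT and CAST/SPRT. They were among the strongest, with a median DMC1 signal of 239 and a median H3K4me3 ratio of 14.7, and 27 of the 28 had a signal of at least 100. Of the 22 with a DMC1 share, 14 were cut over 75% on B6, 7 were matched and 1 was under 25%. The other 55 members found both in an SPRT hybrid and in STUS/B6 were weaker, with a median signal of 50.7 and a median ratio of 7.85.

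Signal and recurrence split the members by the homolog they were cut on. The limit of 100 used next for a strong member was set after the values were seen. Recurring in no other genotype also bears on the homolog by itself. SPRT PRDM9 was present in Hum/SPRT and CAST/SPRT, and B6 PRDM9 with B6 chromosomes in STUS/B6. Strong sites of those kinds could be listed there, so the shares below describe this choice. How far the choice sets them was not tested. Of the 333 strong members, 145 (43.5%) recurred in no other genotype, beside 4.49% of all autosomal hotspots of that strength, and among those with a known share nearly all were cut on the SPRT chromosome. A DMC1 share was listed for 78 of them, and 77 (98.7%, interval 93.1 to 99.8%) were under 25% B6, with 1 matched and none over 75%. Their median was 1.47% B6. By H3K4me3, 110 of the 145 (75.9%) were under 25% B6, the rest were matched and none was over 75%. They lay on 19 of 19 autosomes, with 3 to 19 on each, and had a median H3K4me3 ratio of 8.31.

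Weaker members outside the other genotypes did not share this pattern. Of the 4459 with a signal under 100, 3274 had a DMC1 share, of which 25.96% were under 25% B6, 30.8% matched and 43.2% over 75%. The turn came between 50 and 100, where 61.5% of 104 members with a share were under 25% B6, against 26.1% of 794 between 25 and 50. Strong members that recurred in an SPRT hybrid without STUS/B6 were cut the other way, with 67.0% of 109 over 75% B6 and 6.42% under 25%. SPRT-allele hotspots of that strength had nearly the same shares, 68.8% over 75% and 5.99% under 25%. The median H3K4me3 ratio was 14.1 at these members and 11.9 at the SPRT-allele hotspots.

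Among strong sites, B6-allele hotspots that did not recur in STUS/B6 had shares close to those of the members found in no other genotype. Both sets were picked by absence from STUS/B6, so the likeness may follow from that choice, which was not tested. Of 136 such hotspots with a signal of at least 100, 82 had a DMC1 share and 96.3% of those were under 25% B6, with a median of 1.61%. Their median ratio of 8.79 lay close to the 8.31 of the strong members found in no other genotype. B6-allele hotspots of that strength that did recur in STUS/B6 were under 25% in 85.2% of 567. Under a signal of 100 this likeness was gone, with 68.0% of B6-allele hotspots outside STUS/B6 under 25% B6 and 15.7% over 75%. SPRT-allele hotspots of that range, with 16.4% under 25% and 49.1% over 75%, lay nearer to the weaker members. In the weakest range, under 15, members found in no other genotype were under 25% B6 in 24.8%, B6-allele hotspots in 30.4% where they recurred in STUS/B6 and 55.3% where they did not, and SPRT-allele hotspots in 37.5%. No test was made of these differences, since hotspots of 1 library are not replicates.

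**Figure D3:**
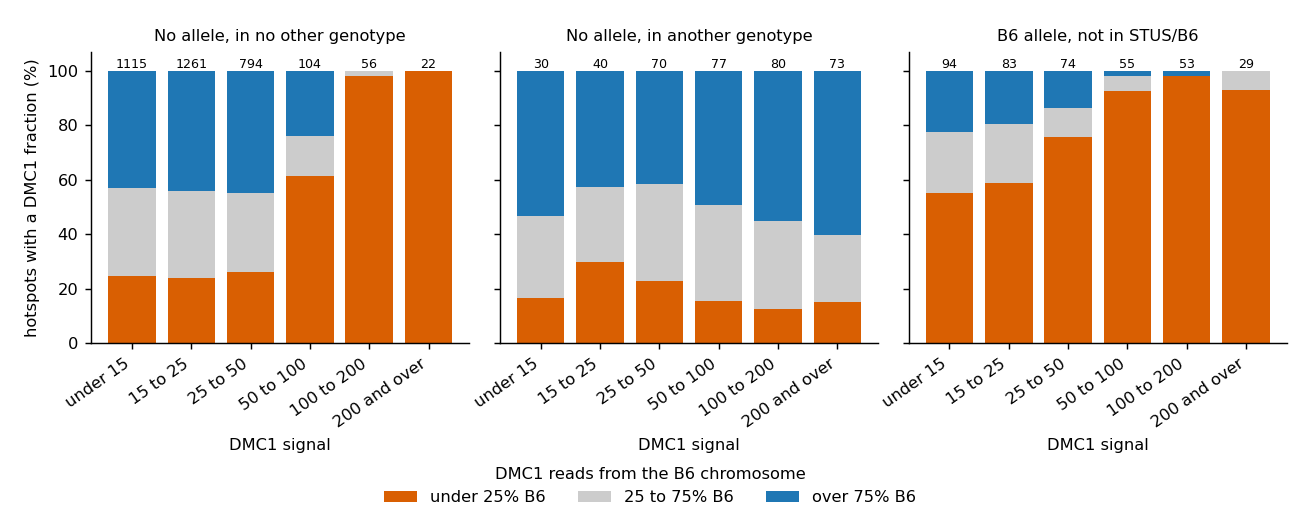
Share of hotspots (y, %) cut under 25% (orange), 25 to 75% (grey) and over 75% (blue) on the B6 chromosome by DMC1, in ranges of DMC1 signal (x), for members in no other genotype, members in at least 1 other genotype and B6-allele hotspots not in STUS/B6. Numbers above the bars are the hotspots with a DMC1 share. The orange part of the first panel rises from 24.8% under a signal of 15 to 98.2% at 100 to 200 and 100% at 200 and over.

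The 10 strongest members showed both kinds. 5 of them recurred in no other genotype, and the other 5 recurred in both Hum/SPRT and CAST/SPRT. The strongest member of all, centered at chr8:8393458 (mm10), lay between genes, 224 kb from Efnb2, which encodes the ligand ephrin B2. Its DMC1 signal was 675, with 19.6% of DMC1 reads from B6. H3K4me3 there was 11.6 times input, from a coverage of 208 in ChIP and 18 in input, and 26.9% of 383 SNP-carrying reads came from B6 (Wilson interval 22.7 to 31.5%). The nearest hotspot of another genotype lay 1583 bp away, in CAST/SPRT.

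The next, at chr7:3203979, was cut almost wholly on the SPRT chromosome. It lay 14.7 kb from Nlrp12, an innate immune receptor gene, with a signal of 621 and 0.269% of DMC1 reads from B6. By H3K4me3 its B6 share was 14.4% (interval 9.93 to 20.3%, 174 reads), at a ratio of 7. The 3 other members of the 10 that were absent from every other genotype had no DMC1 share listed. These were chr4:156220851 in Perm1, a muscle regulator of mitochondrial genes, chr19:59373125 near Pdzd8 and chr12:4019372 in Efr3b, which encodes a plasma membrane scaffold protein. Their H3K4me3 reads came from B6 in 35.6% (interval 29.2 to 42.6%), 16.3% (11.9 to 22.1%) and 16.0% (11.9 to 21.1%). Their signals were 510, 496 and 494, and each of the 3 H3K4me3 shares lay under an even split with its whole interval.

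3 of the 5 recurrent members among the 10 were cut on B6. At chr4:19817349, 1.38 kb from the amino acid transporter gene Slc7a13, the signal was 574 and 99.1% of DMC1 reads came from B6. The same position was assigned to SPRT in Hum/SPRT (signal 375, 99.3% B6) and in CAST/SPRT (132, 100% B6). In STUS/B6 it was assigned to B6, at a signal of 48.6 with 41.8% of reads from B6. The members at chr9:123178057 in Cdcp1, a membrane glycoprotein gene, and at chr8:26089132 in Hook3, a dynein adaptor gene that overlaps the lncRNA gene 1700047A11Rik there, had 99.5 and 99.6% of DMC1 reads from B6, at signals of 530 and 528. Cdcp1's hotspot was unknown in both SPRT hybrids and Hook3's was SPRT in both, while neither position was a hotspot in STUS/B6.

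2 of the 5 were cut about evenly. Between genes on chromosome 9, at chr9:11247820, the signal was 516 with 52.6% of DMC1 reads from B6. H3K4me3 at the same place gave 66.3% from B6 (interval 61.8 to 70.5%, 442 reads) at a ratio of 18.1. It was assigned to SPRT in Hum/SPRT and CAST/SPRT and to B6 in STUS/B6, where 100% of DMC1 reads were from B6 at a signal of 25.2. The hotspot at chr17:84222314 in Thada had a signal of 502, 52.1% of DMC1 reads from B6 and 53.3% of H3K4me3 reads (interval 49.9 to 56.8%, 793 reads). Hum/SPRT assigned it to SPRT and CAST/SPRT gave it no allele. Whether a site lies in an exon or an intron was not analysed here.

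**Figure D4:**
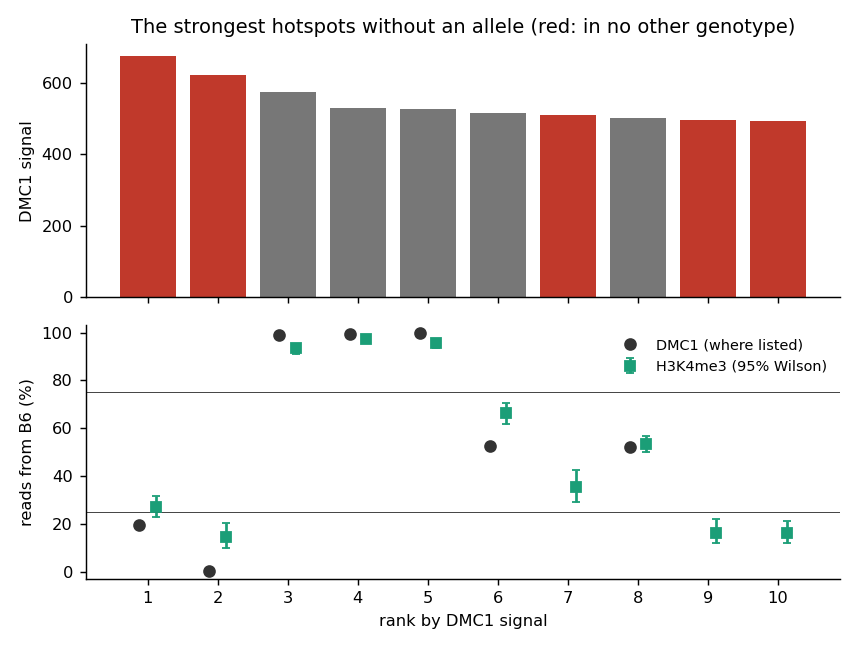
DMC1 signal (top, y) and share of reads from the B6 chromosome (bottom, y, %) by DMC1 (circles, where listed) and by H3K4me3 (squares with 95% Wilson intervals) at the 10 strongest members by rank (x). Red bars are the 5 members found in no other genotype, whose H3K4me3 shares run from 14.4 to 35.6%, and grey bars the 5 found in Hum/SPRT and CAST/SPRT, from 53.3 to 97.3%.

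Some members had a humanized or STUS name in another genotype. The strongest member with the humanized name elsewhere, chr4:43433955 near Fam166b, had a signal of 145 with 33.1% of DMC1 reads from B6. In STUS/Hum its neighbour 418 bp away was humanized with 86.4% B6, and Hum/SPRT listed it as unknown with 86.8%. At chr11:22086840 in Ehbp1, the strongest member with the STUS name, the signal was 203 and no DMC1 share was listed. H3K4me3 gave 4.14% from B6 (interval 1.91 to 8.73%, 145 reads). The STUS-allele hotspot of STUS/Hum, 143 bp away, had 88.3% of its DMC1 reads from B6, and that of STUS/B6 at 156 bp had no allele and 99.6%. The member found in all 4 other genotypes, chr13:80598447, was weak, with a signal of 9.62 in B6/SPRT and 10.6 to 13.6 elsewhere. It had no allele in any of them, and no SNP-carrying read and an input coverage of 1 in B6/SPRT.

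Gene starts held few members, and those few had high H3K4me3. Of 4874 members on chromosomes with annotated starts, 73 (1.498%, interval 1.19 to 1.88%) lay within 1 kb of the start of a protein-coding gene, where 0.893% of all autosomal hotspots did. B6-allele hotspots did so in 24 cases (0.606%) and SPRT-allele hotspots in 59 (0.662%). The median H3K4me3 ratio at those 73 members was 23.6, against 4.65 at the other members. Assigned hotspots at gene starts stood at 10.6 for the B6 and 12.3 for the SPRT allele. DMC1 signal did not follow, with a median of 23.0 at the 73 members and 19.6 at the others. Of the 73, 56 recurred in no other genotype, beside 4604 of all 5103 members (90.2%) and 28.4% of all autosomal hotspots. By H3K4me3, 63 of the 73 (86.3%) were matched, against 64.6% of the members away from starts. All autosomal hotspots at gene starts were matched in 78.6%, against 56.2% away from them, with 75% at starts for the B6 and 69.5% for the SPRT allele. How much of the H3K4me3 at these sites is that of the promoter was not tested.

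Distance to the start ordered the ratio. Members within 250 bp had a median of 33.96 (21 hotspots), those at 250 to 500 bp of 27.5 (16) and those at 500 to 1000 bp of 14.1 (36). At 1000 to 2000 bp the median was 6.28 (69 hotspots), and over 20 kb it was 4.50 (3546). A ratio of at least 20 was reached by 132 members (2.59%), beside 4.45% of all autosomal hotspots, and 41 of those 132 lay within 1 kb of a gene start. For the B6 allele it was 3 of 80 and for the SPRT allele 14 of 607.

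**Figure D5:**
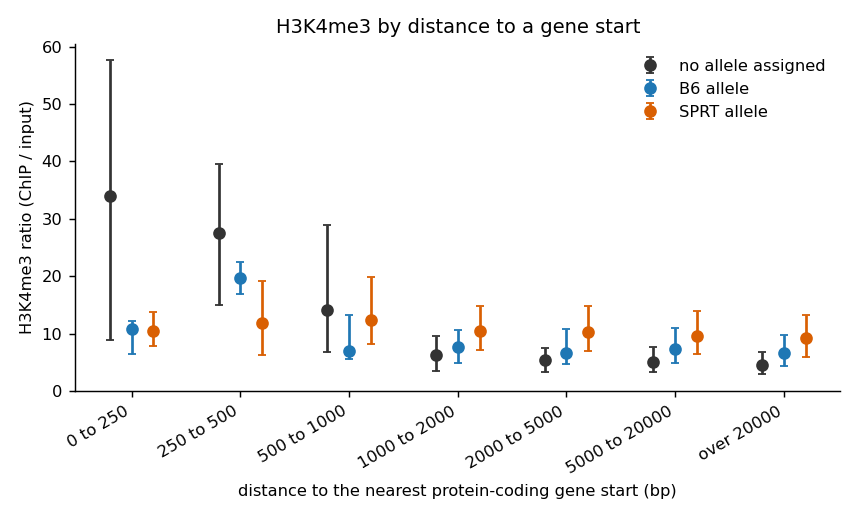
Median H3K4me3 ratio, ChIP over input coverage (y), by distance of the hotspot center to the nearest protein-coding gene start (x, bp), for members, B6-allele and SPRT-allele hotspots. Points are medians and bars run from the 25th to the 75th percentile of hotspots. Members fall from 33.96 within 250 bp to 4.50 beyond 20 kb.

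The 3 members with the highest ratio were those beside the promoters shown above. At chr9:123021370, 44 bp from the Tmem42 start, ChIP coverage was 1905 over an input of 22, a ratio of 86.6. Its DMC1 signal was 8.03, among the weakest of all members, and 61.0% of 2216 H3K4me3 reads came from B6 (interval 58.9 to 63.0%). At chr2:18392737, 93 bp from the start of Dnajc1, the ratio was 78.8 and the DMC1 signal 33.8, with 34.5% of DMC1 reads and 55.3% of H3K4me3 reads (interval 52.6 to 58.0%) from B6. At chr13:118387024, 228 bp from the Mrps30 start, the ratio was 74.2 and the signal 23.2, with 73.7% of DMC1 and 60.8% of H3K4me3 reads (interval 59.1 to 62.5%) from B6. The Tmem42 and Mrps30 positions were also hotspots of STUS/B6, without an allele, at signals of 15.5 and 21.6.

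Members lay nearer to hotspots with an assigned allele than the hotspots of each allele lay to those of the other allele. For members the median distance to the nearest B6-allele or SPRT-allele hotspot of the same library was 54.7 kb. It was 73.9 kb from B6-allele to SPRT-allele hotspots and 172 kb from SPRT-allele to B6-allele hotspots. Hotspots without an allele were not counted as neighbours. Within 2000 bp were 62 members (1.21%), with 0.607% of B6-allele and 0.270% of SPRT-allele hotspots. The shortest distance for a member was 624 bp, and no hotspot of the 3 classes had such a neighbour within 500 bp. The number of possible neighbours differs between the classes and was largest for members. It was 9247 for the B6 allele, 4122 for the SPRT allele, and both sets together for members. The distances ranked in the reverse order of these numbers, and their part in the distances was not tested.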

How the data were processed

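Each of the 5 genotypes had 1 library of DMC1 single-stranded DNA sequencing (SSDS), and B6/SPRT also had 2 H3K4me3 ChIP and 2 input samples. Per the labels, reads were mapped with BWA to mm10, with no version given. The authors called hotspots, compared mice to assign alleles, and used SNPs to assign reads to homologs. The authors deposited, for each hotspot, a DMC1 signal, a fraction of DMC1 reads from B6, integer counts for the coverage by ChIP and by input, an enrichment ratio (replaced here by ChIP counts over input counts), and a fraction of H3K4me3 reads from B6 with the counts of SNP-carrying reads. A further 13 columns, which hold p-values and a mark of sharing, were not used. H3K4me3 columns were taken as pooled over samples, since each genotype has 1. Tables were tied to genotypes by the alleles they name and by their number of hotspots.

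Members, hotspots named in the text, limits and lists were chosen with earlier results of these data known. Named were the 10 strongest members by DMC1 signal, the 3 with the highest ratio at an input coverage of at least 10, and the strongest of each class of B6 share, of recurrence and of each allele named elsewhere. Medians carry 95% order-statistic intervals and shares 95% Wilson intervals (scipy 1.17.1, numpy 2.4.6, pandas 2.3.3). Both cover counting error only. Recurrence was a center within 500 bp, and gene starts came from RefSeq GRCm38.p6, without chromosome 18, where 229 members were left out of that count. Summed over members, ChIP coverage was 608427 and input coverage 95407, with 79 members under an input coverage of 10 and 42 under 20 SNP-carrying reads. The interval code was tested on simulated data. Sequence words around hotspots need a genome and were not analysed here.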

Additional observations from a re-analysis of the deposited data

Results flagged for a closer look

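Hotspots without an allele on the X chromosome were kept out of the report, which covers autosomes. There were 162 of them among 725 X-chromosome hotspots (22.3%), with a median DMC1 signal of 18.4 and a median H3K4me3 ratio of 5. They stand here because they are a signal outside the autosomal comparison, on a chromosome that these males have from B6 alone. A DMC1 share was listed for 151, with a median of 100% from B6 and 149 at 95% or more. The lowest was 32.1%. By H3K4me3, 141 of 143 were at 95% or more, and the lowest was 69.2%.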

How the results depend on the processing

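No paired analysis was possible because the tables hold no column per replicate, so leaving out a H3K4me3 replicate was not run either. Of 35 alternative values, 22 lay outside the interval of the value reported. For the shares of summed DMC1 signal and summed H3K4me3 ratio, that interval treated the share as a count of hotspots. It does not measure the spread of those shares. Some alternatives, such as each hotspot counted once, are other quantities, so the tally is no measure of robustness. The member count, which has no interval, was 5265 with the X chromosome. The members' share of DMC1 signal (9.90%) was 27.6% with each hotspot counted once and 5.11% among the strongest 5000. With the authors' enrichment the median H3K4me3 ratio was 4.07. The matched share by DMC1 (30.3%) was 50.4% with limits of 10 and 90%, 14.0% with 40 and 60%, 25.9% weighted by signal and 22.1% with missing shares counted as unmatched. By H3K4me3 (65.0%) it was 92.1% and 29.9% with the wider and the narrower limits. Recurrence within 250 bp was 6.90% in Hum/SPRT, 2.29% in STUS/B6 and 0.647% in STUS/Hum, and within 1000 bp 4.17% in STUS/B6 and 1.74% in STUS/Hum. Among members above the median signal it was 13.8% in Hum/SPRT, 6.43% in CAST/SPRT and 4.82% in STUS/B6. Members near a gene start were 0.759% within 500 bp, and 2.50% with starts of any annotated gene. The share under 25% B6 of strong members in no other genotype (98.7%) was 77.5% from a signal of 50, 100% from 200 and 75.9% by H3K4me3, alternatives chosen after seeing the data. The depth of DMC1 is unknown, and with 1 library per genotype no value has a replicate error.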
